A study of Nicrophorus vespilloides with 24 samples.

Results

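Locus_6761 is an odorant-binding protein 1-like locus in the head transcriptome of the burying beetle *Nicrophorus vespilloides*, and it is 1 of 11403 loci counted and 1 of 9648 that passed a filter on low counts. It was chosen by its blast hit, a putative odorant-binding protein 1 of the beetle *Tribolium*, and with its changes against control beetles already known. The locus groups 4 assembled scaffolds, and its expected counts were between 610 and 4801 in a library, so the filter did not bear on it.

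Odorant-binding proteins are small, soluble, secreted proteins. In insect antennae they fill the lymph around olfactory neurons and carry hydrophobic odorants and pheromones towards the receptors on those neurons. Members of the family are also made in other tissues, among them glands, gut and haemolymph. Burying beetles breed on small vertebrate carcasses, and both parents can feed and guard the larvae there.

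RNA was measured in 24 libraries, each a pool of heads of 10 beetles aged 21 days after eclosion, with 2 libraries in each of 12 groups. The sexes were crossed with 2 social conditions, uniparental (1 mate was removed so that the other cared alone) and biparental (both parents stayed on the carcass), and with 3 sequential states. Control beetles had mated but had received no carcass, caring beetles were collected near their larvae, and post-caring beetles had deserted the larvae. By the study's methods, all beetles were then kept singly and their heads were taken 24 h later. Post-caring beetles were in the experiment for longer and were paired at a younger age, so that all were 21 days old. Each sex and social condition had its own control, caring and post-caring pools, and the caring and post-caring beetles had also been given a mouse carcass to breed on. The 2 libraries of a group are separate pools, so the spread between them covers 10 beetles each and not single animals.

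Totals ranged between 14647691 and 23906173 expected counts per library. They ranged between 16131079 and 23906173 in uniparental libraries and between 14647691 and 18156673 in biparental libraries. The share of loci with a value that was not a whole number, which arises where reads are divided among contigs, was 40.4% to 48.9% in uniparental and 33.3% to 38.2% in biparental libraries. The scaling factors (TMM, trimmed mean of M values) were 0.839 to 1.47 in uniparental and 0.672 to 1.08 in biparental libraries. The labels call the tissue brain, while the study's methods describe whole heads with fat body and connective tissue. Summed levels of 3 neuronal contigs were 15.8 to 56.6 CPM (counts scaled to library size, with the TMM factors applied), and 1 of these 3 was at 0 in at least 1 library. Contigs of fat body, muscle and eye were all present. In bulk tissue, more cells of a kind and more RNA per cell cannot be told apart.

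Levels of the odorant-binding protein 1-like locus were lowest in control heads and reached their highest values in a different state in each sex of biparental parents. Across the 8 libraries of each state, the lowest, median and highest levels were 33.3, 47.6 and 65.6 CPM in control beetles, 86.3, 112 and 308 CPM in caring beetles, and 54.4, 115 and 246 CPM in post-caring beetles. All 8 caring libraries were above all 8 control libraries, a pattern shown by 0.508% of the 9648 loci. The locus was chosen with its changes over controls known, so nothing is read from that share. Of the 8 post-caring libraries, those at 54.4 CPM (uniparental females) and 61.6 CPM (uniparental males) lay within the range of the controls.

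In biparental females the locus was at 44.8 and 65.6 CPM in control heads, 308 and 278 CPM in caring heads, and 139 and 115 CPM in post-caring heads. These females were thus highest while caring, with both caring libraries above all other libraries of the series. In biparental males the levels were 52.5 and 52.0 CPM in control heads, 107 and 89.1 CPM in caring heads, and 208 and 246 CPM in post-caring heads. Here the highest libraries came after caring had ended.

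In uniparental females the levels were 33.3 and 42.8 CPM in control heads, 86.3 and 133 CPM in caring heads, and 54.4 and 114 CPM in post-caring heads. In uniparental males they were 50.4 and 42.98 CPM in control heads, 88.6 and 117 CPM in caring heads, and 61.6 and 92.7 CPM in post-caring heads. In both sexes of uniparental parents the caring and post-caring libraries overlapped, and both states lay above their own controls.

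**Figure D1:**
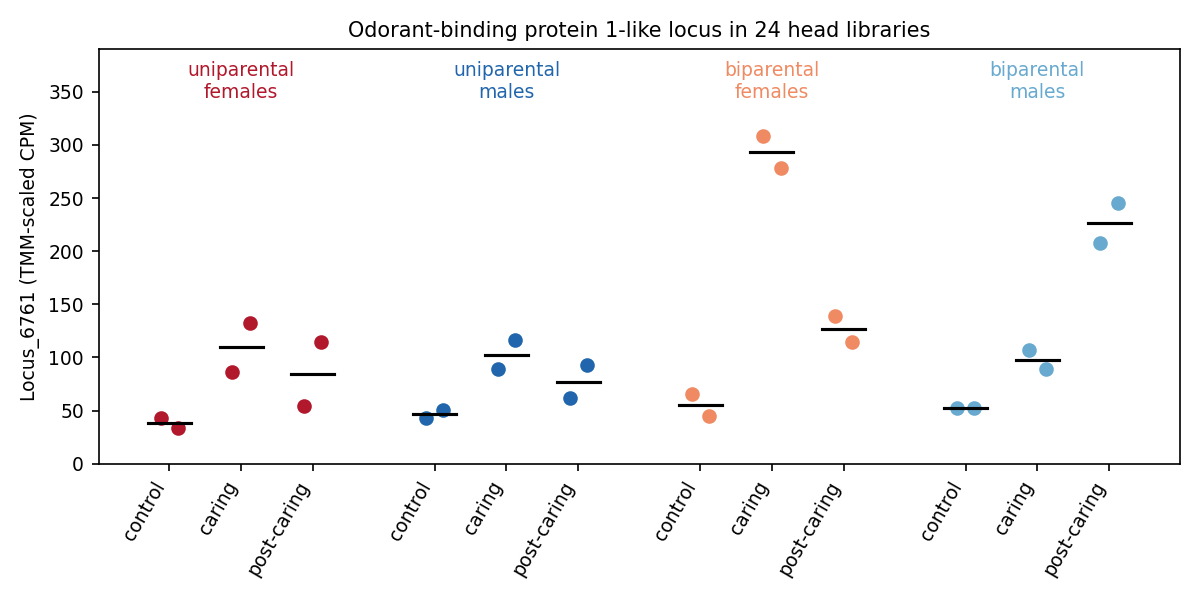
Level of Locus_6761 in TMM-scaled CPM (y axis) in each of 24 libraries, by state within sex and social condition (x axis). Points are libraries and bars are means of 2 libraries. Caring biparental females (308 and 278 CPM) and post-caring biparental males (208 and 246 CPM) stand above the rest.

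Ordered by mean, caring biparental females came first at 293 ± 21.3 CPM (SD, n = 2) and post-caring biparental males next at 227 ± 26.7 CPM (SD, n = 2). These groups overlapped neither each other nor the group that followed them. The next 6 groups, from post-caring biparental females (127 ± 17.3 CPM, SD, n = 2) down to post-caring uniparental males (77.1 ± 22.0 CPM, SD, n = 2), overlapped with their neighbours in the order. The 4 control groups came last, between 55.2 ± 14.7 CPM in biparental females and 38.03 ± 6.70 CPM in uniparental females (SD, n = 2 each). Control uniparental males (46.7 ± 5.27 CPM) overlapped neither of their neighbours in the order, and control biparental females and males overlapped. The pooled SD within groups was 0.33 on the log2(CPM + 1) scale, and the highest library was 9.25-fold above the lowest. By mean level the locus ranked 1035 among 9648.

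Against the controls of the same sex and social condition, the locus was higher without overlap in all 8 comparisons. Of all loci, 25.5% were higher without overlap in caring biparental females, 17.2% in caring biparental males, 25.2% in caring uniparental females and 27.7% in caring uniparental males. In the post-caring comparisons the same shares were 21% and 20.4% in biparental and 17.4% and 23.1% in uniparental females and males. The change in caring beetles was 2.41 ± 0.31 in biparental females, 0.91 ± 0.30 in biparental males, 1.53 ± 0.30 in uniparental females and 1.13 ± 0.30 in uniparental males (log2 fold change ± SE, n = 2 libraries against 2). The change in post-caring beetles was 1.20 ± 0.30 in biparental females, 2.12 ± 0.31 in biparental males, 1.15 ± 0.30 in uniparental females and 0.72 ± 0.30 in uniparental males (log2 fold change ± SE, n = 2 against 2). These changes had been seen when the locus was chosen, so they are given as a description, without a test.

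The median log2 change of all tested loci lay between -0.02 and 0.02 in each of these 8 comparisons. The scaling of the libraries bore on the females. With library totals in place of TMM factors, the caring change was 3.0 in biparental and 2.22 in uniparental females, but the median of all loci then also moved, to 0.56 and 0.66. Relative to that median the changes were 2.45 and 1.56. Without post-caring replicate 2, the post-caring change of uniparental females was 0.55, and without replicate 1 it was 1.59. In uniparental males it was 0.38 without post-caring replicate 2.

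In biparental parents the caring change was larger in females than in males by 1.5 ± 0.43 (log2, SE), and the post-caring change differed by -0.91 ± 0.42 (female minus male, log2, SE). In uniparental parents the same differences were 0.39 ± 0.42 for caring and 0.43 ± 0.42 for post-caring. Between social conditions, the caring change of females differed by -0.88 ± 0.42 and the post-caring change of males by -1.40 ± 0.42 (uniparental minus biparental, log2, SE), again as a description.

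The levels in post-caring and caring beetles can be set side by side, but each such difference is the difference of a pair of the changes by which the locus was chosen, so it too is given without a test.

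The question here was whether expression stayed up once caring had ended. In biparental females the locus had 139 and 115 CPM in post-caring heads, against 308 and 278 CPM in caring heads, a difference of -1.20 ± 0.30 (log2, SE). With each library left out in turn this difference lay between -1.39 and -1.07. In biparental males the difference had the other sign, with 208 and 246 CPM in post-caring heads against 107 and 89.1 CPM in caring heads (1.21 ± 0.30, log2, SE). In both sexes the libraries of the 2 states did not overlap. The share of all loci without overlap between these states is not given here, so nothing is read from that.

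In uniparental parents, post-caring minus caring was -0.38 ± 0.30 in females and -0.41 ± 0.30 in males (log2, SE), and the states overlapped in both sexes. In females the sign turned to 0.068 without post-caring replicate 1. Over the 4 combinations of sex and social condition the mean difference was -0.20 (log2).

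Comparisons between the sexes and between the social conditions at a given state were tested with the quasi-likelihood test of edgeR, adjusted over 9648 loci after Benjamini and Hochberg, with a threshold of 0.05. They are no independent evidence, since they use the same libraries. All 3 single comparisons that passed hold caring biparental females or post-caring biparental males, the groups whose high levels were already known, and their p-values are smaller than they would be for a locus picked without that knowledge. The same applies to the mean difference between social conditions over strata and to its permutation test, which include both groups.

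The next question was whether the sexes differed at a given state. Among biparental parents the caring females had 308 and 278 CPM, against 107 and 89.1 CPM in caring males. This difference of 1.58 ± 0.30 (log2, SE) passed (quasi-likelihood adjusted p = 0.00329), as did 11.3% of all loci. With each library left out in turn, its adjusted p lay between 0.001 and 0.0346. After caring the order was the opposite, with 139 and 115 CPM in females against 208 and 246 CPM in males, a difference of -0.84 ± 0.30 that did not pass (adjusted p = 0.0864, 10.1% of loci passed).

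That last comparison passed in DESeq2 (adjusted p = 0.0356) and in a fit of biparental libraries alone (0.0387), and also when either post-caring uniparental female library was left out (0.041 without replicate 1 and 0.0344 without replicate 2). Female minus male was 0.08 and -0.30 in biparental and uniparental control beetles, 0.09 in caring uniparental beetles and 0.13 in post-caring uniparental beetles, none past the test (log2, adjusted p between 0.726 and 0.904). Of all loci 8.51%, 1.96%, 18.5% and 5.64% passed in those 4 comparisons. Averaged over the 6 strata of state and social condition the sex difference was 0.12 ± 0.12 (log2, SE, adjusted p = 0.434, 44.2% of loci passed). The exact permutation test within strata gave 0.11 with p = 0.597, with females higher in 4 of 6 strata.

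**Figure D2:**
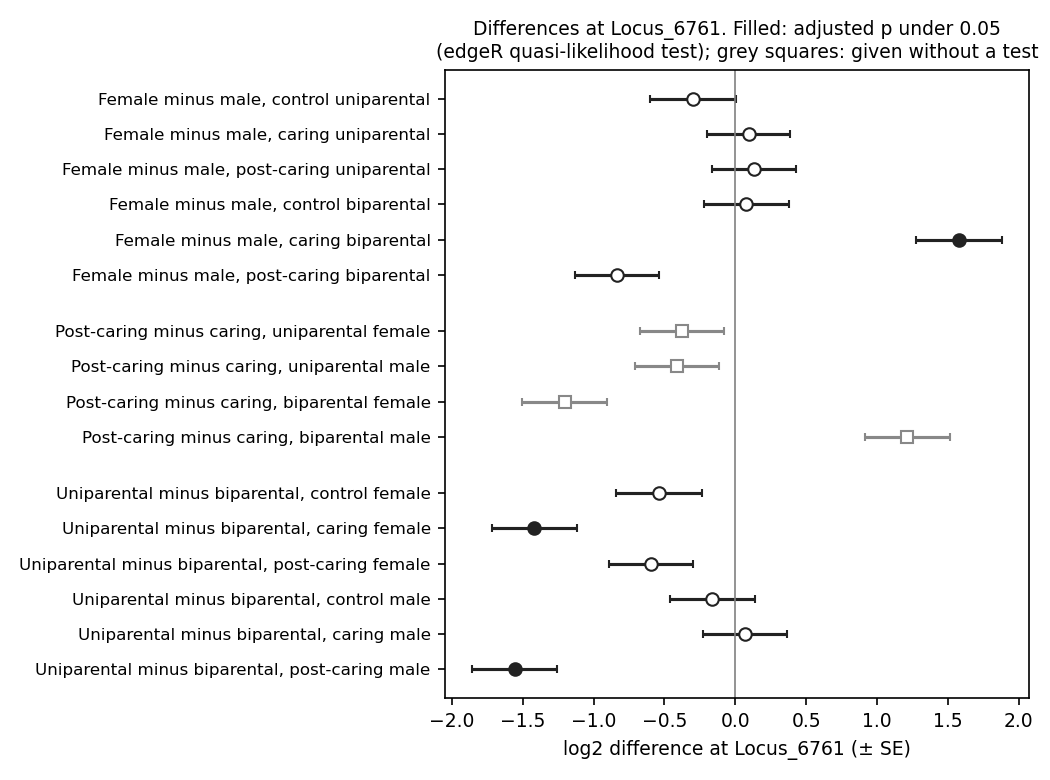
Log2 differences at Locus_6761 (x axis, bars are SE of the fit) between sexes, between post-caring and caring beetles and between social conditions (rows, 2 libraries against 2 each). Filled circles passed the quasi-likelihood test at an adjusted p under 0.05, open circles did not, and grey squares are given without a test. The 3 filled circles (1.58, -1.42 and -1.56) involve caring biparental females or post-caring biparental males.

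The last question was whether parents that cared alone differed from those that cared as a pair. Caring uniparental females had 86.3 and 133 CPM, against 308 and 278 CPM in caring biparental females, a difference of -1.42 ± 0.30 (log2, SE, quasi-likelihood adjusted p = 0.00162). Post-caring uniparental males had 61.6 and 92.7 CPM, against 208 and 246 CPM in post-caring biparental males, a difference of -1.56 ± 0.30 (log2, SE, adjusted p = 0.000655). In these comparisons 39.2% and 43.6% of all loci passed, so passing was common. When the counts of Locus_55249, a locus with the same blast hit, were added to those of Locus_6761, the difference in caring females was -0.67 (adjusted p = 0.0392) and that in post-caring males -1.49 (adjusted p = 0.000195).

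The other 4 differences between social conditions were -0.54 and -0.16 in control females and males, -0.59 in post-caring females and 0.07 in caring males (log2, adjusted p between 0.122 and 0.877). Of all loci 37.3%, 41.9%, 40.5% and 46.8% passed in those 4 comparisons. The difference in post-caring females was -1.18 without post-caring uniparental female replicate 2 and -0.15 without replicate 1, so it hung on single libraries. Over 6 strata the mean was -0.70 ± 0.12 (log2, SE, adjusted p = 6.39e-05, 73.3% of loci passed), and uniparental parents were higher in 1 of 6 strata. The exact permutation test gave -0.72 on the log2(CPM + 1) scale with p = 0.00206 (0.00617 adjusted over 3 tests). The largest differences behind both values were those of caring females (-1.42) and post-caring males (-1.56). These hold the groups known to be high when the locus was chosen, so no general difference between social conditions is read from either p-value. With library totals the mean over strata was -0.41, beside a median of 0.32 over all loci, and the permutation test no longer passed (adjusted p = 0.0958). Summed with Locus_55249 the mean was -0.45 (adjusted p = 0.000664).

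Even among control beetles, which had raised no larvae, 37.3% of loci in females and 41.9% in males differed between the social conditions. The share of values that were not whole did not overlap between the 2 sets of libraries, and depth had a median of 20099485.5 expected counts in uniparental and 15440456.5 in biparental libraries. Social condition and any difference in library handling between the 2 sets cannot be told apart.

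Other tissue in the heads was followed through marker contigs. The 15 fat body contigs (vitellogenins, apolipophorins and storage proteins), of which 2 were at 0 in at least 1 library, took 5.62% to 9.46% of counts in caring females, 17.5% to 22.2% in post-caring females and 22% to 39.6% in control females. In biparental males they took 0.338% and 0.601% in control, 0.143% and 0.204% in caring and 0.24% and 0.249% in post-caring heads, and in uniparental males 0.454% and 0.859%, 0.0626% and 0.0763%, and 0.162% and 0.196% in the same order of states. The share was lowest in caring heads in both sexes and social conditions. The locus was highest on average in caring heads in 3 of these 4 combinations, and in post-caring heads in biparental males. Leaving these contigs out before scaling gave a caring change of 2.42 in biparental females and 1.55 in uniparental females. The share follows the most abundant contigs, and the paper reports vitellogenin as lower during parenting. It thus does not separate fat body tissue from expression of these genes. The 15 did not all move alike, though their median log2 caring change was negative in each group. It was -2.77 in biparental and -2.71 in uniparental females, and -1.63 in biparental and -6.0 in uniparental males. In caring uniparental females 2 were called higher and 2 lower, where 3.61% and 7.55% of all loci were. In caring uniparental males 0 were called higher and 11 lower, where 2.18% and 2.82% of all loci were. In caring biparental females 0 and 2 were called (5.01% and 2.92% of all loci), and in biparental males none (0.0104% and 0.0104%). The part of fat body tissue in the result was not tested.

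The pair of eye contigs (rhodopsin and arrestin-like), neither of them at 0 in any library, was higher in caring than in control heads of uniparental parents, as was the locus. Their summed level was 6967 to 8646 CPM in caring against 1269 to 2680 CPM in control uniparental females, and 6349 to 7332 CPM in caring against 2276 to 2308 CPM in control uniparental males. In post-caring uniparental females it was 5959 and 3496 CPM where the locus was at 54.4 and 114 CPM. In post-caring uniparental males it was 9463 and 3541 CPM where the locus was at 61.6 and 92.7 CPM. In post-caring biparental males it was 2610 to 4098 CPM, against 758 to 1168 CPM in control biparental males. In caring biparental females it was 1679 to 3393 CPM, against 997 to 3409 CPM in their controls, so there the groups overlapped. Pearson's r between the summed eye level and Locus_6761 was 0.68 over 12 uniparental and 0.43 over 12 biparental libraries, as a description. The part of eye tissue in the result was not tested.

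The 13 muscle contigs, none at 0 in any library, moved with the groups as well. Their summed level was 20092 and 22136 CPM in caring against 46657 and 70085 CPM in control uniparental females, and 12 of the 13 were called lower there, where 7.55% of all loci were. In caring females, 11 of 13 were lower in uniparental than in biparental heads, whose summed levels were 56116 and 46708 CPM. Of all loci 39.2% passed there, in either direction. In caring biparental beetles, 9 of 13 were lower in females than in males, as were 8 of 13 in post-caring biparental beetles. Also lower in females were 9 in control biparental, 10 in caring uniparental, 9 in post-caring uniparental and 0 in control uniparental beetles. Of all loci 11.3%, 10.1%, 8.51%, 18.5%, 5.64% and 1.96% passed in these comparisons, in the same order and in either direction. Muscle contigs were called lower in females in each of these comparisons except that of control uniparental beetles. In caring against control biparental females 1 of 13 was called higher and 0 lower, and in post-caring against control biparental males 0 were called. Of all loci 5.01% were called higher and 2.92% lower in the former comparison, and 0.0104% were called in the latter. The part of muscle tissue in the differences of Locus_6761 was not tested.

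Of the other loci, 2 had the same top hit as Locus_6761 in the *Tribolium* protein set. Neither these loci nor Locus_6761 can be placed on a genome here. Locus_55249, a single scaffold with whole counts in 23 of 24 libraries, ranged between 0.549 and 146 CPM. Locus_40943, also a single scaffold, ranged between 74.4 and 141 CPM and had whole counts in 1 library, while Locus_6761 had them in none. Reads that match several such contigs are divided among them by the counting tool, so the values of near-identical copies are uncertain.

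Locus_55249 is in the study's table of caring genes, which was selected on caring against control heads in these libraries, so its differences from caring heads are likewise a description. It had 79.3 and 72.8 CPM in caring biparental females against 7.34 and 1.23 CPM in their controls, a change of 4.12 ± 0.70 (log2, SE). In uniparental females it had 146 and 99.96 CPM in caring heads against 8.80 and 14.7 CPM in controls, a change of 3.39 ± 0.64 (log2, SE). In caring males the change was 2.25 ± 0.67 in uniparental and 1.28 ± 0.92 in biparental beetles (log2, SE), and in biparental males the libraries overlapped.

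After caring, Locus_55249 passed the test in no comparison with controls. At most 0.0207% of all loci passed in any of those comparisons, so that says little about the locus. Locus_55249 had 8.55 and 8.92 CPM in post-caring biparental females, above the 7.34 and 1.23 CPM of their controls, and 21% of all loci were likewise higher without overlap there. Its 4 post-caring changes against controls were between 0.17 and 1.0 (log2, adjusted p between 0.491 and 0.998). Averaged over sexes and conditions, post-caring minus caring was -2.25, female minus male was 2.29 and uniparental minus biparental was 1.29 (log2), the last with the opposite sign to Locus_6761. In post-caring biparental males, where Locus_6761 had 208 and 246 CPM, Locus_55249 had 4.10 and 0.549 CPM.

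Locus_40943 passed the test in none of the 8 comparisons with controls, where its changes lay between -0.30 and 0.22 (log2, adjusted p between 0.403 and 0.887). Its levels were 98.2 and 141 CPM in post-caring biparental males against 102 and 105 CPM in their controls. When the counts of Locus_6761 and Locus_55249 were added together, the caring change of uniparental females was 2.22, and the post-caring minus caring difference of these females was -1.25.

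**Figure D3:**
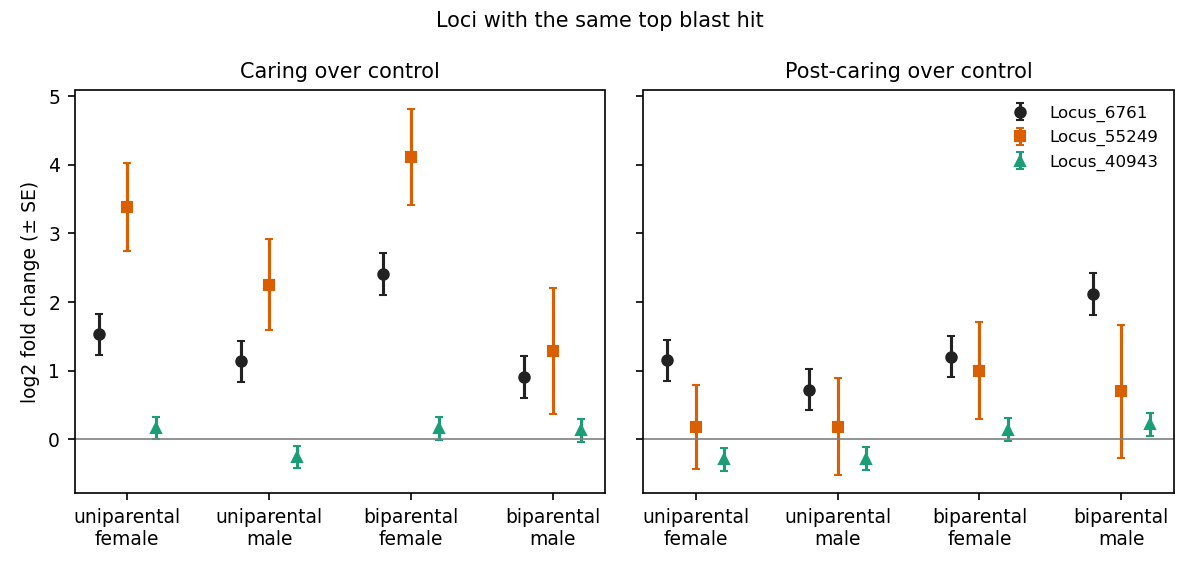
Log2 fold change (y axis, bars are SE of the fit, 2 libraries against 2) over controls in caring (left) and post-caring (right) beetles for 3 loci with the same top blast hit. Locus_40943 stays between -0.30 and 0.22, Locus_55249 is highest in caring females (4.12 and 3.39), and Locus_6761 is above 0 in all 8 groups.

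A list of 15 further contigs with odorant-binding or related hits was drawn from the study's own table of caring genes, which was selected on these samples and is not independent evidence of direction. All 15 passed the filter on low counts, but 4 of them had at most 3 counts in at least 1 group and passed through the groups where they were high. In caring against control beetles, 5 were called higher and 1 lower in biparental females, 8 and 1 in uniparental females, 2 and 1 in uniparental males, and 0 and 0 in biparental males. Of all loci, 5.01% were called higher and 2.92% lower in caring biparental females, 3.61% and 7.55% in uniparental females, 2.18% and 2.82% in uniparental males, and 0.0104% and 0.0104% in biparental males.

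The median log2 caring change of the 15 was 1.12 in biparental females, 0.66 in biparental males, 2.93 in uniparental females and 1.47 in uniparental males, beside medians of all loci between -0.02 and 0. With contigs at 0 set to the bound that 3 counts per group allow, and those under it in both groups left out, these medians were 1.77, 0.91, 2.51 and 1.47. With library totals the calls in biparental females were 8 higher and 0 lower, and in uniparental females 13 and 1, but calls over all loci were then 46.9% and 61.9%, against 7.93% and 11.2% with TMM factors. In none of the 4 post-caring comparisons with controls was any of the 15 called by the quasi-likelihood test, where 0%, 0.0104%, 0.0207% and 0% of all loci passed in biparental females, biparental males, uniparental females and uniparental males and between 713 and 1570 loci had an unadjusted p under 0.05. Averaged over the 4 combinations, 7 of the 15 were lower and 1 was higher in post-caring than in caring heads, where 5.63% of all loci were lower and 8.32% higher. The list was selected on these same caring libraries, so nothing is read from those counts.

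The list held contigs with larger changes than Locus_6761 and others with changes of the other sign. Those named next were picked by their mean caring change, so their values are a description. Locus_7343, with a hit to odorant-binding protein 5 of the moth *Agrotis ipsilon*, changed by 4.39 ± 0.88 in caring biparental females and 4.29 ± 0.86 in caring uniparental females (log2, SE), and its post-caring minus caring difference was -4.46 on average. Locus_C895814 changed by 2.92 and 2.44 in the same females and by 2.16 in caring uniparental males (log2).

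Locus_C808225 and Locus_C903126 share a hit to a 13 kDa haemolymph protein of *Tribolium*. The listed Locus_52896 has the same hit but rose with caring, from a mean of 0.883 CPM in control to 3.43 CPM in caring heads. Its caring changes were 2.06 and 2.03 in biparental females and males and 2.04 and 1.66 in uniparental females and males (log2). The change of Locus_C808225 was -1.64 in caring uniparental females and -1.54 in caring uniparental males, and that of Locus_C903126 was -1.74 in caring biparental females (log2). Locus_40168 had caring changes between -0.25 and 1.21. A further 5 contigs, among them Locus_40943, had the hits of Locus_6761 or of those haemolymph protein contigs but were outside the caring table. They were gathered after their files had been opened, and 0 of these 5 were called in any of the 8 comparisons with controls. Of all loci, between 0% and 11.2% passed in those comparisons.

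**Figure D4:**
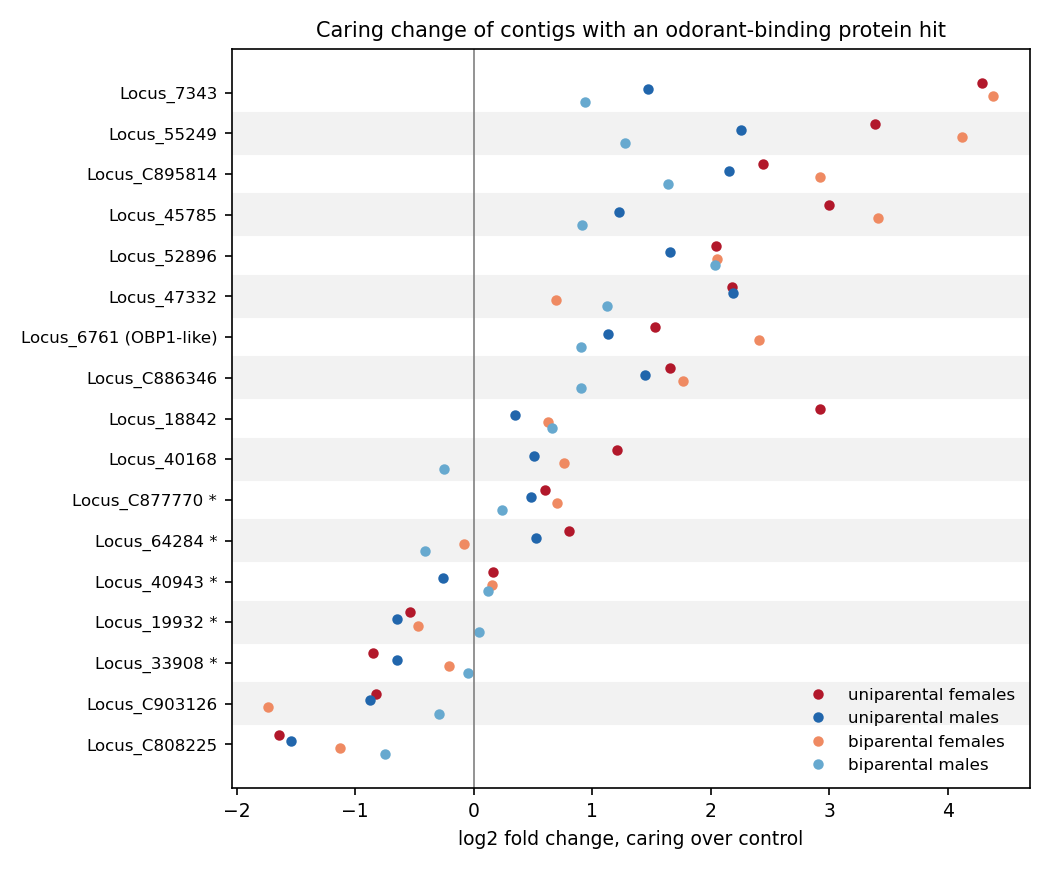
Log2 fold change of caring over control beetles (x axis) in 4 groups (colours) for Locus_6761, 11 of the 15 listed contigs and the 5 contigs outside the caring table (asterisks), ordered by mean change. The 4 listed contigs with at most 3 counts in a group are left out, and Locus_6761 lies between 0.91 and 2.41.

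A further 10 contigs of the caring table had hits to other chemosensory genes and were likewise selected on these samples. Of 3 contigs of chemosensory proteins, another family of small soluble carriers, 1 was higher in caring biparental females, 1 in caring uniparental females and 1 in caring uniparental males. Of 2 chemoreceptor contigs, 1 was higher in caring uniparental females. Of 5 contigs listed as pheromone-degrading or cytochrome P450-like, enzymes that can clear odorants, 2 were higher in caring biparental females, 1 in caring uniparental females and 2 in caring uniparental males. Together 3 of 10 were called higher in each of these 3 groups, where 5.01%, 3.61% and 2.18% of all loci were, and since the table was selected on these comparisons nothing is read from that. None of these 10 was called lower in caring beetles. None was called in caring biparental males or in any post-caring comparison with controls, where at most 0.0207% of all loci passed.

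Loci with the pattern most like that of Locus_6761 were sought by Pearson's r of log2(CPM + 1) over the 24 libraries, among 9647 others, as a description of libraries that share groups and depth. The median r was -0.03 and none was above 0.9 or below -0.9. Among 824 tested loci with a named hit in the caring table, the highest were Locus_16692 (glucose dehydrogenase-like, r = 0.82), Locus_C911280 (cuticular protein 67B-like, r = 0.82), Locus_5623 (similar to trehalase, which splits the blood sugar trehalose, r = 0.82), Locus_31113 (a conserved hypothetical protein, r = 0.80) and Locus_9275 (aromatic amino acid decarboxylase-like, r = 0.80). For deviations from the group means the same r was 0.10 for Locus_16692, 0.47 for Locus_C911280, 0.64 for Locus_5623, 0.34 for Locus_31113 and 0.14 for Locus_9275.

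Locus_C886346, with a hit to odorant-binding protein 5 of *Agrotis ipsilon*, had the highest r among the odorant-binding contigs, 0.78, at rank 13 of all loci. It changed by 1.77 ± 0.47 in caring biparental females and 1.66 ± 0.47 in caring uniparental females (log2, SE), comparisons on which the caring table was selected. In post-caring biparental males, its change over controls was 1.13 ± 0.46 and did not pass (adjusted p = 0.389). At the other end, Locus_7679 had r = -0.79 and Locus_C808225 had r = -0.70.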

How the data were processed

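Heads were pooled from 10 beetles a library, 2 libraries in each of 12 groups, taken from the titles and labels. The authors trimmed reads (Trimmomatic 0.30, per the submitters' processing notes), assembled them without a genome, and deposited expected counts per locus from Bowtie2 and RSEM, not normalized and not pooled. Reads shared by similar contigs are divided among them, so values need not be whole.

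From these expected counts, rounded to whole numbers, edgeR 4.0.16 in R 4.3.3 was run on all 24 libraries with TMM scaling. The function filterByExpr with a minimum count of 10 removed 1755 of 11403 loci and left 9648. A mean for each of 12 groups left 12 residual degrees of freedom. P-values of the quasi-likelihood test were adjusted by Benjamini-Hochberg over 9648 loci (threshold 0.05). Levels are TMM-scaled CPM, and correlations and permutation tests used log2(CPM + 1). SE was the log2 change divided by the root of F. The script for the test was tested on simulated data.

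The locus and all lists were chosen with earlier results of these data known. Changes against controls and post-caring minus caring differences have no test for Locus_6761, nor have caring changes of contigs named from the caring table. Named contigs were the locus with the same hit in the caring table, the 3 with the highest and the 3 with the lowest mean caring change among the odorant-binding list, and the 5 annotated loci with the highest and lowest r, of which the ends are given. Locus_40943, Locus_C886346 and Locus_52896 were named after their values were seen. Alternatives were other scaling (RLE, library totals), no filter, a prior count of 2, a pseudocount of 0.25, the likelihood ratio test, DESeq2 1.42.0, libraries of 1 social condition, replicate blocks, the locus summed with Locus_55249, and leaving out each library. P-values measure the spread between 2 pools a group. The loci were matched to no genome, so no position or sequence is given.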

Additional observations from a re-analysis of the deposited data

Results flagged for a closer look

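The post-caring minus caring difference of Locus_6761 had opposite signs in the sexes of biparental parents, at 1.21 in males and -1.20 in females (log2). The female minus male difference of this locus was likewise 1.58 in caring biparental beetles, but -0.297 in control uniparental and -0.835 in post-caring biparental beetles. The negative differences did not pass the quasi-likelihood test (adjusted p = 0.726 and 0.0864). In control uniparental beetles the nearest libraries of the sexes were at 42.77 CPM (female) and 42.98 CPM (male). The change of sign between these groups was not tested.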

How the results depend on the processing

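With 2 libraries a group, single libraries weighed heavily. Whether the replicate numbers of the titles pair the libraries was not settled. Deviations from group means correlated between -0.50 and 0.55 (median 0.05) over 66 pairs of groups, above 0.1 in 25 and below -0.1 in 12. A replicate block changed no call of Locus_6761 (for example 1.58, adjusted p = 0.00158, for female minus male in caring biparental beetles). With the numbers of the column headers as the block, added after seeing the data because they are crossed in control males, female minus male in post-caring biparental beetles was -0.81 (adjusted p = 0.0472) and uniparental minus biparental in post-caring females -0.66 (0.0463). Leaving out fat body contigs, also added after seeing the data, changed no call.

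Post-caring minus caring in biparental males, given without a test, was 1.21 by the likelihood ratio test and 1.20 by DESeq2. Female minus male in post-caring biparental beetles passed in DESeq2 (-0.87, 0.0356) and in biparental libraries alone (-0.86, 0.0387). It did not pass with library totals (-0.76, 0.0942) or summed with Locus_55249 (-0.75, 0.0609). Library totals gave caring changes of 3.0 in biparental and 2.22 in uniparental females, post-caring changes of 1.69 and 1.5 in these females, and female minus male caring changes of 2.0 and 0.98 in biparental and uniparental parents. The median of all loci moved with them, to 0.56 and 0.66 (caring) and 0.48 and 0.34 (post-caring) in these females. They turned female minus male in biparental controls to -0.15 and uniparental minus biparental in control males to 0.11, and weakened the permutation test between social conditions (-0.42, adjusted p = 0.0958).

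Summed with Locus_55249, the caring change of uniparental females was 2.22, post-caring minus caring was -1.25 in uniparental females and -0.52 on average, and female minus male was 0.93 in caring uniparental beetles (adjusted p = 0.0152) and 0.40 on average (0.00386). Uniparental minus biparental was then -0.67 in caring females (0.0392). The female minus male caring change was 0.96 in uniparental parents, and the uniparental minus biparental caring change of females -0.41. The causes of these shifts were not tested. Among the 15 odorant-binding contigs, calls higher in caring females were 8 (biparental) and 13 (uniparental) with library totals, against 5 and 8, while 46.9% and 61.9% of all loci were called, against 7.93% and 11.2%, and 3 in biparental females in a fit of biparental libraries alone.

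Leaving out 1 library at a time gave caring changes of 1.18 to 1.80 in uniparental females, and post-caring changes of 0.55 to 1.59 in uniparental females and 0.38 to 0.99 in uniparental males. Post-caring minus caring was -1.39 to -1.07 in biparental females and -0.98 to 0.068 in uniparental females. Female minus male was -0.25 to 0.32 in biparental controls, -0.25 to 0.37 in caring uniparental, -1.05 to -0.71 in post-caring biparental and -0.49 to 0.57 in post-caring uniparental beetles. Uniparental minus biparental was -0.14 to 0.24 in caring males and -1.18 to -0.15 in post-caring females. For differences of changes, female minus male was 0.045 to 0.67 (caring) and -0.17 to 0.87 (post-caring) in uniparental parents, and uniparental minus biparental was -1.23 to -0.61 (caring females), -0.62 to 0.39 (post-caring females) and -1.74 to -1.13 (post-caring males). The remaining alternatives (no filter, RLE scaling, a prior count of 2 and a pseudocount of 0.25) changed no direction or call of Locus_6761.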
